A study of Mus musculus with 24 samples.

Results

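Tumour necrosis factor (Tnf) and its relatives are trimeric ligands, most of them made as transmembrane proteins, that signal through receptors of the Tnf receptor superfamily. In macrophages, Tnf is among the first cytokines made after Toll-like receptor 4 (TLR4) senses lipopolysaccharide (LPS), a cell wall component of Gram-negative bacteria. Its receptors are Tnfrsf1a, which carries a death domain and is found on most cell types, and Tnfrsf1b, which lacks one and is prominent on immune cells. FOS, a subunit of the AP-1 transcription factor, is induced by LPS in the same cells, and the study asked which transcripts depend on it. The 7 genes described here are 5 ligands (Tnf, Tnfsf9, Tnfsf10, Tnfsf12 and Tnfsf13b) and 2 receptors (Tnfrsf1a and Tnfrsf1b), taken by symbol from the 24273 genes of the table. All 7 were found and all passed the filter on low values, which left 13901 genes for testing.

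RNA-seq was carried out on bone marrow-derived macrophages (BMDMs) of C57BL/6 mice, left unstimulated (0 h) or given 100 ng/ml LPS for 0.5, 1 or 2 h. Cells labelled FosKO carried LysM-Cre, which expresses Cre from the lysozyme gene Lyz2 in myeloid cells, together with loxP-flanked Fos alleles (Fos-fl/fl). Control cells carried LysM-Cre and are called LysM-Cre. No other allele of the controls is named in the design text, but the paper describes 1 floxed copy of Fos in them. Each of the 8 groups had 3 libraries, and the sources used here do not give the age of the mice. The methods call the libraries biological replicates without saying whether they came from separate animals or cultures, so that p-values measure the spread between these libraries.

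The labels were checked first. In FosKO-labelled libraries Fos was below LysM-Cre at 0.5 h only and above it at the other times: compared with LysM-Cre it differed by 1.49, -0.77, 1.64 and 3.29 on the log2 scale at 0, 0.5, 1 and 2 h, and the early rise with LPS (2.41 at 0.5 h in LysM-Cre) was not called in FosKO (0.15). Lyz2, where Cre is inserted, was higher by 4.89 to 5.17 in FosKO at the 4 times, and the number of LysM-Cre copies in either genotype is not given in the sources used here. The directions given below therefore rest on the labels. A split that cut across groups was present in 18S ribosomal RNA (Rn18s-rs5), which lay between 16.65 and 17.00 in 5 libraries taken after 0.5 or 1 h of LPS and between 18.57 and 19.39 in the other 19. Of 7 macrophage markers all were present, with Csf1r between 14.95 and 15.28. Others varied more: Mertk lay between 9.07 and 10.99, Fcgr1 between 12.20 and 13.70 and Cd14 between 13.70 and 15.37. Summed on the log2 scale, the 7 lay between 17.13 and 17.41 in LysM-Cre and between 17.10 and 17.51 in FosKO. At 2 h the sums were 17.39 to 17.41 in LysM-Cre and 17.46 to 17.51 in FosKO. Of the other lists, summed on the same log2 scale, NK cell markers (2 of 3 in the table, Ncr1 below 0) reached at most 2.46, fibroblast markers (4 of 4, Pdgfra below 0) lay between 4.05 and 5.03, and B cell markers (4 of 4) lay between 5.46 and 5.71 in LysM-Cre and between 5.08 and 5.52 in FosKO. Dendritic cell markers (3 of 3) lay between 4.75 and 5.67 up to 1 h, and at 2 h between 6.76 and 6.90 in LysM-Cre and between 6.37 and 6.42 in FosKO. The summed T cell list (5 genes) lay between 7.59 and 7.90 in LysM-Cre and between 8.01 and 8.45 in FosKO, with Cd4 (7.57 to 8.44) far above the others and Cd3e below 0, while the neutrophil list (4 of 5 genes in the table, with S100a8 and S100a9 the only ones above 0) lay between 5.61 and 6.64 in LysM-Cre and between 5.02 and 5.74 in FosKO. The part of these differences in the results below was not tested.

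Sequences of Tnf and Tnfsf10 are shown first. Tnf mRNA is short-lived because decay factors bind AU-rich repeats in its 3′ UTR, and the densest 30-base window of that UTR (bases 437 to 466 after the stop codon) is shown with its overlapping ATTTA pentamers in capitals.

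Tnf 3′ UTR: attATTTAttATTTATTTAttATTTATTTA

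The Tnf 3′ UTR of 764 bases held 8 ATTTA pentamers, or 10.5 per kb. Among the 21042 genes with an annotated 3′ UTR, 10.4% held as many or more. Tnfsf9 held 2 in 253 bases (7.91 per kb), Tnfsf10 8 in 3998 bases (2.00 per kb), Tnfsf13b 6 in 3631 bases (1.65 per kb), Tnfsf12 1 in 590 bases (1.69 per kb) and Tnfrsf1b 2 in 2324 bases (0.86 per kb). The 490 bases of Tnfrsf1a held 0. The pentamers are a description of sequence, and no decay rate was measured.

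Promoters were read for 5 of the 7 genes, Tnfsf9 and Tnfsf12 having no entry in the RefSeq promoter table (GRCm38.p6). The 250 bases before the start site of Tnf (chr17:35202008-35202257, minus strand) and Tnfsf10 (chr3:27316827-27317076, plus strand) are shown because Tnf was the most abundant of these transcripts and Tnfsf10 differed most between the genotypes. Capitals mark matches to the motifs searched on both strands, which were AP-1 (TGANTCA), an interferon regulatory factor (IRF) motif (AANNGAAA), TATAAA, the cyclic AMP element TGACGTCA and the NF-kB consensus.

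Tnf: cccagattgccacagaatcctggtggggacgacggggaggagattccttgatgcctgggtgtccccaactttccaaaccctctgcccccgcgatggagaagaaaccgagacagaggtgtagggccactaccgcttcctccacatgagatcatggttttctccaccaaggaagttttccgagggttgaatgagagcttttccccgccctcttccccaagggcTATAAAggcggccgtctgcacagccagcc
Tnfsf10: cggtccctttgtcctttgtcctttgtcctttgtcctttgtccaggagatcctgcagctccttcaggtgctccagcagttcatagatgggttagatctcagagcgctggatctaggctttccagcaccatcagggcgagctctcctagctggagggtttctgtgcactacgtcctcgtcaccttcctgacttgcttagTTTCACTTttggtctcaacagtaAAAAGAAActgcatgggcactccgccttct

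Tnf had TATAAA from 29 to 24 bases before its start, a motif found in 12.4% of the 32851 promoter windows of this length. Tnfsf10 had 2 IRF matches, from 53 to 46 and from 30 to 23 bases before its start, and Tnfrsf1b had 1, from 10 to 3 bases before its start. That motif was present in 21.3% of windows. The AP-1 motif was present in 6.75% of windows and, among these genes, only before the downstream one of 2 start sites of Tnfsf13b, which also had 3 IRF matches of which the last pair overlapped. The NF-kB and cyclic AMP motifs, present in 7.25% and 1.55% of windows, matched none of the 5 genes. No match says only that these letters are not in this window.

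In unstimulated LysM-Cre BMDMs the order of the genes, on the log2 scale per kb of exon, was Tnf (11.56), Tnfrsf1b (11.21), Tnfsf12 (10.45), Tnfrsf1a (10.23), Tnfsf9 (8.76), Tnfsf10 (4.99) and Tnfsf13b (2.75). Each step in this order was larger than the spread of the libraries, which does not measure the choice of length. Lengths were those of all annotated exons together, 1515 bases for Tnfsf12 and 2591 for Tnfrsf1a. The longest coding transcripts of these 2 genes have 1435 and 2156 bases, and the small step between them depends on that choice. At 1 h of LPS Tnfsf9 (13.61) had passed Tnfrsf1b (12.27) in LysM-Cre, and at 2 h Tnfrsf1b (13.23) was again above Tnfsf9 (11.56). Tnf was the highest at every time in both genotypes. Among the 8 groups, with these exon lengths, libraries of neighbouring genes overlapped only for Tnfsf12 and Tnfrsf1a in FosKO at 0.5 h.

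**Figure D1:**
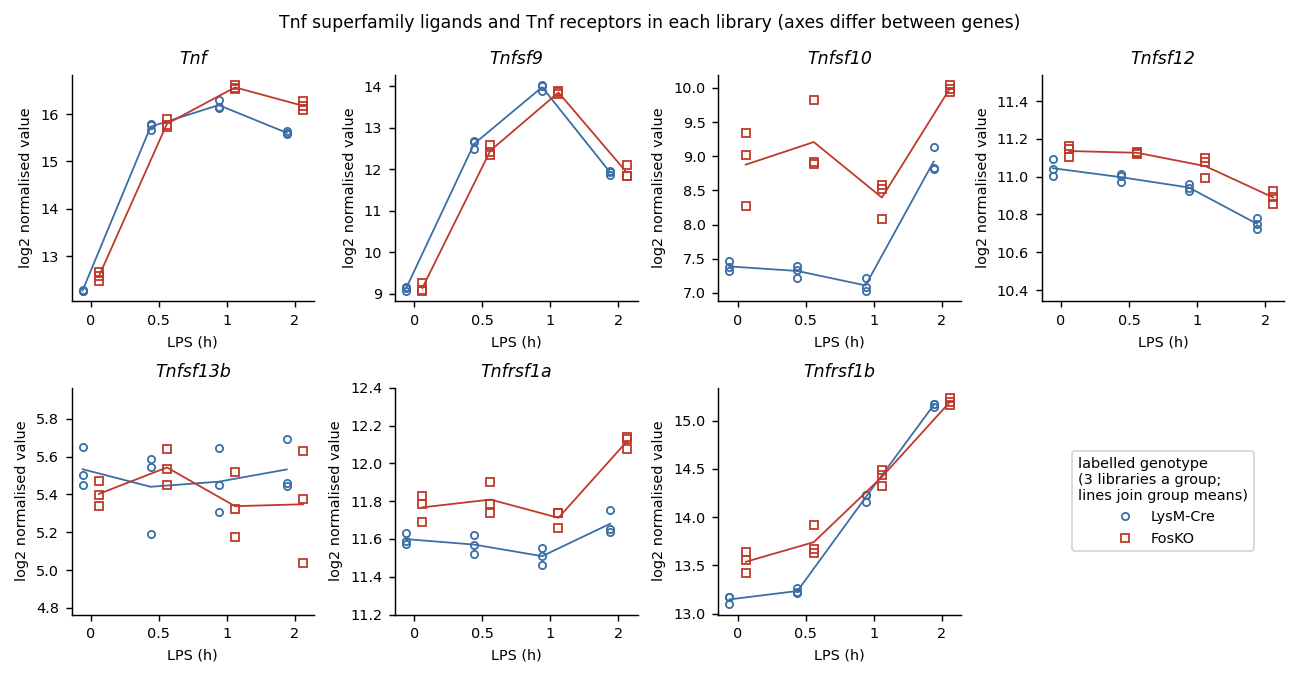
Log2 normalised value (y axis, its range differing between genes) of each gene in each library against time of LPS (x axis, categories not to scale); open points are libraries, 3 per group, and lines join group means. Tnf and Tnfsf9 rise at 0.5 h and peak at 1 h in both genotypes, Tnfrsf1b rises through 2 h, and all 12 FosKO libraries of Tnfsf10 lie above the LysM-Cre libraries of the same time.

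Tnf (ENSMUSG00000024401, chr17:35199381-35202007, minus strand, GRCm38) codes for the founding ligand of the family. In LysM-Cre its log2 values in the 3 libraries were 12.26, 12.28 and 12.27 at 0 h and 15.66, 15.76 and 15.78 at 0.5 h, then 16.13, 16.15 and 16.29 at 1 h and 15.57, 15.60 and 15.65 at 2 h. Values in FosKO were 12.48, 12.57 and 12.66 at 0 h and 15.73, 15.76 and 15.90 at 0.5 h, then 16.52, 16.56 and 16.62 at 1 h and 16.17, 16.08 and 16.27 at 2 h. All stimulated libraries lay above all unstimulated ones, and the 1 h libraries were the highest of each genotype. At 0.5 h Tnf had risen by 3.46 (SE 0.06, 11.0-fold) in LysM-Cre and by 3.22 (9.34-fold) in FosKO, which placed it 7th and 6th among the rises of all 13901 genes tested by limma (adjusted p 2.08e-20 and 6.75e-20). At 1 h the rise over 0 h was 3.92 (15.1-fold) and 3.99 (15.9-fold), and at 2 h it was 3.33 and 3.60. In bulk RNA, fewer cells of a type and less RNA per cell cannot be told apart. From 1 to 2 h Tnf fell by 0.59 in LysM-Cre (adjusted p 2.10e-08) and by 0.39 in FosKO (adjusted p 5.73e-06), and under quantile normalisation the changes were -0.77 and -0.78.

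Unstimulated FosKO libraries exceeded LysM-Cre ones in Tnf by 0.30 (SE 0.06, limma adjusted p 0.000263). The excess was 0.38 after 1 h (adjusted p 2.46e-05) and 0.57, or 1.48-fold, after 2 h (adjusted p 7.58e-08). The groups did not overlap at these 3 times. Under quantile normalisation the 3 excesses were 0.21, 0.25 and 0.24, all called, without the larger value at 2 h. At 0.5 h the groups overlapped and the difference was 0.06 (95% confidence interval -0.06 to 0.18, adjusted p 0.423), with a sign that reversed under quantile normalisation (-0.19, adjusted p 0.00799). Restricted to libraries of high 18S, the values for Tnf were 0.12 and 0.46 for 0.5 and 1 h, and to those of low 18S -0.06 and 0.30. These sets hold 1 or 2 libraries per group; when limma was fitted to the 19 libraries of high 18S, the adjusted p was 0.176 at 0.5 h and 0.000666 at 1 h, where LysM-Cre keeps 1 library that is assumed to vary like the other groups. The transcripts whose values followed Tnf most closely over the 24 libraries were Tnfaip3 (Pearson r 0.995), Nfkbiz (0.995) and Cxcl2 (0.993), a description over libraries that share groups and normalisation.

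Tnfsf9 (ENSMUSG00000035678, chr17:57105325-57107757, plus strand), the ligand 4-1BBL of the T cell co-stimulatory receptor Tnfrsf9, had the widest range of the 7 genes. LysM-Cre libraries held 9.07, 9.15 and 9.16 at 0 h and 12.49, 12.67 and 12.68 at 0.5 h, then 13.90, 14.01 and 14.04 at 1 h and 11.86, 11.95 and 11.97 at 2 h. FosKO libraries held 9.07, 9.08 and 9.27 at 0 h and 12.36, 12.43 and 12.58 at 0.5 h, then 13.81, 13.86 and 13.89 at 1 h and 11.84, 11.85 and 12.10 at 2 h. No stimulated library overlapped an unstimulated one, and the highest values were again at 1 h. The rises over 0 h in LysM-Cre were 3.49 (SE 0.07, 11.2-fold), 4.85 (28.9-fold) and 2.80 (6.95-fold) after 0.5, 1 and 2 h. In FosKO it was 3.31, 4.71 (26.2-fold) and 2.79. The rise at 1 h ranked 3rd of 13901 genes in LysM-Cre and 2nd in FosKO (limma adjusted p 2.28e-21 and 3.40e-21). Between 1 and 2 h Tnfsf9 fell by 2.06 in LysM-Cre (4.16-fold) and by 1.92 in FosKO (3.79-fold).

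Tnfsf9 did not pass the test between the genotypes at any time with all libraries as deposited and no replicate block. It differed by 0.01 in unstimulated cells (95% confidence interval -0.14 to 0.16) and by 0.01 after 2 h (-0.14 to 0.15). Between these times the values were -0.16 for 0.5 h (-0.31 to -0.01, limma adjusted p 0.0771) and -0.13 for 1 h (-0.28 to 0.02, adjusted p 0.181). All 3 FosKO libraries lay below all LysM-Cre libraries at 1 h, and the groups overlapped at the other times. Both of the latter passed the test with the replicate number as a block (adjusted p 0.00324 and 0.0187) and under quantile normalisation (-0.26 and -0.29), and that for 0.5 h also after removal, at that time, of replicate 1 of LysM-Cre (-0.22) or replicate 3 of FosKO (-0.22). Restricted to high 18S the values were -0.08 and -0.02 for 0.5 and 1 h, and to low 18S they were -0.33 and -0.22. A lincRNA, Gm11110, overlaps the 5′ end of Tnfsf9 on the opposite strand, and although the reads are described as strand-specific, the strand setting of the counting is not given in the sources used here. The profile most like that of Tnfsf9 was that of Nfkbid (r 0.991), then Cxcl2 (0.974) and Btg1 (0.969).

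Tnf and Tnfsf9 had like time courses (r 0.945 over the 24 libraries) and differed in the genotype comparison. This pair was chosen after its values were seen, and the comparison is given without a test. Within a library, where scaling of the whole library cancels, Tnf exceeded Tnfsf9 by 3.11 to 3.19 in LysM-Cre and by 3.39 to 3.48 in FosKO at 0 h. After 0.5 h of LPS the ranges were 3.09 to 3.16 and 3.32 to 3.37. After 1 h they were 2.14 to 2.25 and 2.69 to 2.73, and after 2 h 3.65 to 3.71 and 4.17 to 4.33. The FosKO range was thus above the LysM-Cre range at each time. Under quantile normalisation the ranges overlapped at 0.5 h and stayed apart at 0, 1 and 2 h.

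Tnfsf10 (ENSMUSG00000039304, chr3:27317028-27342427, plus strand) codes for Trail, a ligand that triggers apoptosis through death receptors. Its values in LysM-Cre were 7.47, 7.32 and 7.37 at 0 h and 7.40, 7.22 and 7.34 at 0.5 h, then 7.08, 7.03 and 7.22 at 1 h and 8.82, 8.81 and 9.13 at 2 h. Those in FosKO were 8.27, 9.02 and 9.33 at 0 h and 8.89, 8.92 and 9.82 at 0.5 h, then 8.09, 8.58 and 8.51 at 1 h and 9.99, 9.95 and 10.04 at 2 h. Every FosKO library lay above every LysM-Cre library of its time, and the FosKO libraries spread most at 0 h (SD 0.55) and 0.5 h (SD 0.53), against 0.08 and 0.09 in LysM-Cre. In the order of the times, the genotypes differed by 1.49 (SE 0.22, 2.81-fold), 1.89 (3.70-fold), 1.29 (2.44-fold) and 1.07 (2.10-fold), with limma adjusted p of 2.06e-05, 7.76e-07, 0.000105 and 0.000457. These were the largest genotype differences of the 7 genes at each time. At 0.5 h Tnfsf10 had the 27th largest excess in FosKO of all 13901 genes. With libraries of high 18S it was 2.06 and 1.47 at 0.5 and 1 h, and with those of low 18S 1.54 and 0.97.

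LPS raised Tnfsf10 late. By 2 h it had risen by 1.53 (2.90-fold, limma adjusted p 3.78e-06) in LysM-Cre and by 1.12 (2.17-fold, adjusted p 0.000163) in FosKO, whereas the earlier changes from 0 h were not called in either genotype (-0.07 and -0.28 in LysM-Cre, 0.33 and -0.48 in FosKO). The 1 h libraries of LysM-Cre nevertheless lay below those of 0 h without overlap, and -0.28 was called with these groups compared alone (adjusted p 0.0178). The step from 1 to 2 h was 1.81 in LysM-Cre and 1.60 in FosKO. In FosKO the value fell by 0.81 from 0.5 to 1 h (adjusted p 0.00815). This fall did not pass the test when FosKO replicate 3 of 0.5 h was removed (-0.51, adjusted p 0.0702), when FosKO replicate 1 of 1 h was removed (-0.66, adjusted p 0.0506), or with these groups alone (adjusted p 0.083). The difference of -0.48 between 1 and 0 h in FosKO stayed uncalled in 15 of 17 alternatives. It was called without FosKO replicate 1 at 0 h (-0.78, adjusted p 0.00475) and, with all libraries, under a replicate block by genotype and number (-0.48, adjusted p 0.0254). The difference between the genotypes in the rise at 2 h was not called (-0.42, 95% confidence interval -1.07 to 0.23, adjusted p 0.431), and was -0.72 (adjusted p 0.0781) without replicate 1 and -0.19 (adjusted p 0.759) without replicate 3 of unstimulated FosKO. Tgtp2 (r 0.995), Apobec3 (0.991) and Ifit1bl1 (0.991) were the genes most like Tnfsf10. Among the 7 genes Tnfrsf1a was most like it (r 0.912).

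Tnfsf12 (ENSMUSG00000097328, chr11:69686250-69695849, minus strand), which codes for Tweak, the ligand of Tnfrsf12a, changed by small amounts. Its values ran from 10.72 to 11.09 in LysM-Cre and from 10.86 to 11.16 in FosKO. LysM-Cre libraries held 11.00, 11.09 and 11.04 at 0 h and 10.75, 10.78 and 10.72 at 2 h, and FosKO libraries held 11.10, 11.15 and 11.16 and then 10.89, 10.92 and 10.86. In both genotypes the 2 h libraries lay below all others. It fell by 0.29 in LysM-Cre (SE 0.03, limma adjusted p 1.37e-08) and by 0.25 in FosKO (adjusted p 1.90e-07) at 2 h, and by 0.10 and 0.08 at 1 h (adjusted p 0.00761 and 0.0366). Quantile normalisation gave larger falls in Tnfsf12, -0.22 then -0.47 in LysM-Cre and -0.18 then -0.46 in FosKO for 1 and 2 h. The 1 h fall in FosKO missed the threshold in several alternatives, among them the 19 high 18S libraries alone (-0.05), removal of FosKO replicate 1 of the 1 h group (-0.05) and removal of FosKO replicate 2 (-0.08) or 3 (-0.07) of the unstimulated group. That in LysM-Cre missed it when replicate 2 of the unstimulated LysM-Cre group was removed (-0.08). The libraries labelled FosKO were higher by 0.09, 0.13, 0.11 and 0.14 at 0, 0.5, 1 and 2 h (adjusted p 0.0169, 0.00102, 0.00384 and 0.000438), with no overlap of the groups at any time. Under quantile normalisation they were 0.03, 0.08, 0.07 and 0.04, of which that at 0.5 h passed (adjusted p 0.0311). In unstimulated cells the difference also missed the threshold after removal of LysM-Cre replicate 1 (0.07), FosKO replicate 2 (0.09) or FosKO replicate 3 (0.08), and with these groups alone (adjusted p 0.085). Tnfsfm13, a read-through gene on the same strand, spans the whole of Tnfsf12, and the antisense gene Tnfsf13os overlaps part of it, so that reads could be split between them and the values are uncertain.

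Tnfsf13b (ENSMUSG00000031497, chr8:10006467-10039072, plus strand), known as Baff and needed for B cell survival, stayed low. All 24 values lay between 5.04 and 5.69, and every pair of groups compared overlapped. It was called in none of the 17 comparisons by limma, with unadjusted p of at least 0.149 and adjusted p of at least 0.299, and no alternative called it. The genotype difference furthest from 0 was that at 2 h, -0.18 (95% confidence interval -0.47 to 0.10). The most like gene, Psmg3, reached r 0.647 only.

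Tnfrsf1a (ENSMUSG00000030341, chr6:125349362-125362484, plus strand) codes for the death domain receptor of Tnf. In LysM-Cre the values were 11.63, 11.58 and 11.59 at 0 h and 11.57, 11.52 and 11.62 at 0.5 h, then 11.46, 11.51 and 11.55 at 1 h and 11.64, 11.65 and 11.75 at 2 h. In FosKO they were 11.69, 11.83 and 11.79 at 0 h and 11.74, 11.79 and 11.90 at 0.5 h, then 11.66, 11.74 and 11.74 at 1 h and 12.13, 12.07 and 12.14 at 2 h. All other libraries stood below the 3 of FosKO at 2 h. The libraries labelled FosKO were higher at each time without overlap, by 0.17 (SE 0.04), 0.24, 0.20 and 0.43 at 0, 0.5, 1 and 2 h (limma adjusted p 0.00466, 0.000156, 0.00099 and 9.10e-08). Under quantile normalisation the value was 0.13 at 1 h, and in unstimulated cells it did not pass (0.09, adjusted p 0.065). For 0.5 and 1 h, Tnfrsf1a differed by 0.30 and 0.28 in libraries of high 18S and by 0.12 and 0.13 in those of low 18S. After 2 h LPS raised Tnfrsf1a in FosKO by 0.35 (adjusted p 5.69e-07) and gave a difference of 0.08 in LysM-Cre that was not called (adjusted p 0.113). Both depended on the scaling, with 0.04 (adjusted p 0.396) in FosKO and a reversed -0.17 (adjusted p 0.000498) in LysM-Cre under quantile normalisation. The difference in LysM-Cre stayed uncalled in 15 of 17 alternatives.

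Tnfrsf1b (ENSMUSG00000028599, chr4:145213463-145246870, minus strand), the receptor of Tnf without a death domain, rose with time. LysM-Cre libraries held 13.17, 13.17 and 13.10 at 0 h and 13.21, 13.27 and 13.22 at 0.5 h, then 14.16, 14.23 and 14.22 at 1 h and 15.14, 15.18 and 15.17 at 2 h. FosKO libraries held 13.42, 13.55 and 13.64 at 0 h and 13.63, 13.67 and 13.92 at 0.5 h, then 14.32, 14.44 and 14.49 at 1 h and 15.16, 15.19 and 15.23 at 2 h. In both genotypes the 1 h libraries lay above the earlier ones and the 2 h libraries above those. The rises over 0 h after 1 and 2 h were 1.06 (SE 0.06, 2.08-fold) and 2.01 (4.04-fold) in LysM-Cre, and 0.88 (1.84-fold) and 1.66 (3.15-fold) in FosKO, with limma adjusted p of at most 2.42e-10. In FosKO quantile normalisation lowered these rises in Tnfrsf1b to 0.58 and 1.07, both called. At 0.5 h the difference was 0.09 in LysM-Cre (adjusted p 0.54) and 0.20 in FosKO (adjusted p 0.0534). The latter was called with TMM factors (0.21, adjusted p 0.0426), with the higher filter, in the 19 high 18S libraries, with the 18S set as a term, with either replicate block, and after removal of FosKO replicate 3 of 0 h (0.25) or FosKO replicate 1 (0.26) or 2 (0.24) of 0.5 h.

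Over the 4 times the genotype difference in Tnfrsf1b was 0.39, 0.51, 0.21 and 0.03 (limma adjusted p 4.00e-05, 1.17e-06, 0.00991 and 0.701). Groups were apart with FosKO higher at the first 3 times and overlapped at 2 h, where the 95% confidence interval was -0.09 to 0.16 and quantile normalisation gave -0.26 (adjusted p 0.000101). After 1 h the difference missed the threshold under quantile normalisation (0.03) and when FosKO replicate 3 of that time was removed (0.18, adjusted p 0.0551). In high 18S libraries Tnfrsf1b differed by 0.55 and 0.30 at 0.5 and 1 h, in low 18S libraries by 0.41 and 0.10. Tlr2 (r 0.995), Cd40 (0.994) and Mapkapk2 (0.993) had the most similar profiles.

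Of the 7 genes, 5, 4, 5 and 4 were called between the genotypes at 0, 0.5, 1 and 2 h, each of them higher in the libraries labelled FosKO. Over all genes tested 35.4%, 40.9%, 33.9% and 44.6% were called at these times, with 2708, 2953, 2500 and 3386 of 13901 genes higher and 2211, 2736, 2208 and 2816 lower. The median difference of the 7 genes was 0.17, 0.13, 0.20 and 0.14, beside all-gene medians of 0.00249, -0.0031947, 0.00198 and 0.00399. Quantile normalisation called 3, 6, 4 and 4 of them. Those called lower in FosKO were then Tnf (-0.19) and Tnfsf9 (-0.26) at 0.5 h, Tnfsf9 (-0.29) at 1 h and Tnfrsf1b (-0.26) at 2 h, and the others were higher. Of all genes called, 55.1%, 51.9%, 53.1% and 54.6% were higher in FosKO at the 4 times, against 45.3%, 45.6%, 42.8% and 43.0% after quantile normalisation. Groups of the 2 genotypes did not overlap in 44.5%, 50.8%, 45.0% and 54.0% of all genes, and among the 7 genes in 5, 4, 6 and 4.

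**Figure D2:**
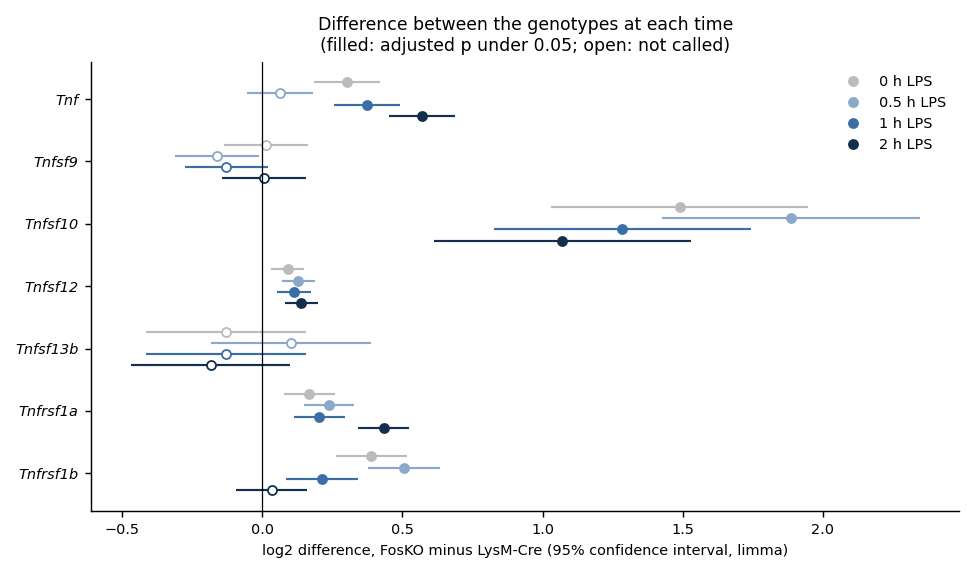
Log2 difference between libraries labelled FosKO and LysM-Cre (x axis) for each gene (y axis) at 0, 0.5, 1 and 2 h of LPS, with 95% confidence intervals from limma; filled points passed an adjusted p of 0.05 over all genes. Tnfsf10 shows the largest differences, 1.07 to 1.89, Tnf and Tnfrsf1a are furthest from 0 at 2 h, and Tnfrsf1b reaches 0.03 at 2 h.

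For the response to LPS, 2 of the 7 genes, Tnf and Tnfsf9, were called at 0.5 h in each genotype and both rose, while 7.24% of all genes were called in LysM-Cre and 5.92% in FosKO. After 1 h 3 rose and 1 fell in each genotype, where 35.8% and 32.6% of all genes were called. After 2 h 4 rose and 1 fell in LysM-Cre (60.8% of all genes were called, 4248 higher and 4200 lower), and 5 rose and 1 fell in FosKO (62.1%, 4530 higher and 4106 lower). Groups did not overlap in 26.1%, 49.3% and 67.9% of all genes for the 3 times in LysM-Cre, and in 19.4%, 39.1% and 63.6% in FosKO. Among all genes called in LysM-Cre, 70.3%, 53.8% and 50.3% were higher at the 3 times, against 48.3%, 37.6% and 40.0% after quantile normalisation. In FosKO the shares were 75.2%, 54.0% and 52.5%, against 50.3%, 35.3% and 39.2%. For the steps in time, 3 rose between 0.5 and 1 h in each genotype and 1 fell in FosKO (26.8% of all genes were called in LysM-Cre and 27.5% in FosKO). Between 1 and 2 h 3 rose and 3 fell in each (52.3% and 50.7% of all genes were called). Quantile normalisation moved the share of higher genes among those called. In LysM-Cre it went from 52.2% to 41.9% for the first step and from 52.6% to 44.4% for the second. In FosKO it went from 52.7% to 39.1% for the first and from 53.6% to 42.1% for the second. In this second step the members that fell were Tnf, Tnfsf9 and Tnfsf12, and those that rose were Tnfsf10, Tnfrsf1a and Tnfrsf1b. The rise of Tnfrsf1a in LysM-Cre (0.17) was called in 16 of 17 alternatives. Its value went down to 0.07 and its limma adjusted p up to 0.136.

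Whether the genotypes differed in their LPS response was tested as the difference of the 2 changes from 0 h. After 2 h 3 of the 7 genes were called, 2 with a larger and 1 with a smaller response in FosKO, where 15.0% of all genes were called (1010 larger and 1071 smaller). The response of Tnf was larger in FosKO by 0.27 (SE 0.08, 95% confidence interval 0.10 to 0.44, limma adjusted p 0.0261), that of Tnfrsf1a was larger by 0.27 (0.14 to 0.39, adjusted p 0.0051), and that of Tnfrsf1b was smaller by 0.36 (difference -0.36, interval -0.54 to -0.18, adjusted p 0.00728). That of Tnf missed the threshold under quantile normalisation (0.03, adjusted p 0.859) and after removal of any of 5 libraries: LysM-Cre replicate 2 (0.26, adjusted p 0.0554) or FosKO replicate 1 (0.22) of the unstimulated groups, and LysM-Cre replicate 1 (0.25), LysM-Cre replicate 2 (0.26) or FosKO replicate 3 (0.22) of the 2 h groups. The calls of Tnfrsf1a and Tnfrsf1b were kept in each alternative run, with a larger value for Tnfrsf1b under quantile normalisation (-0.60). No member was called at 0.5 or 1 h by limma (0.115% and 1.22% of all genes were), and 1 at 0.5 h, Tnf (-0.24, unadjusted p 0.00713), had an unadjusted p under 0.05, against 0 at 1 h. Quantile normalisation called Tnf at 0.5 h (-0.40, adjusted p 0.0385) and Tnfrsf1b at 1 h (-0.31, adjusted p 0.0123).

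The balance of the 2 receptors was also read within each library, as Tnfrsf1b minus Tnfrsf1a on the log2 scale. In LysM-Cre this difference was 1.54, 1.60 and 1.51 before LPS, 1.64, 1.75 and 1.60 after 0.5 h, 2.70, 2.72 and 2.67 after 1 h and 3.50, 3.52 and 3.42 after 2 h. In FosKO the values were 1.73, 1.73 and 1.85, then 1.89, 1.88 and 2.02, then 2.66, 2.70 and 2.75, and last 3.03, 3.12 and 3.09. FosKO libraries were above LysM-Cre libraries at 0 and 0.5 h, overlapped them at 1 h and were below them at 2 h. With quantile normalisation the group means at 2 h were 3.43 and 2.87, those at 0 h were 1.59 and 1.84, and at 1 h all FosKO libraries lay below the LysM-Cre libraries.

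**Figure D3:**
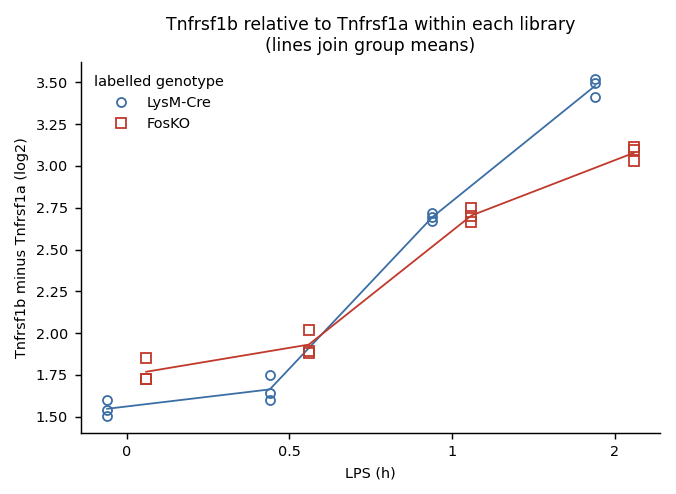
Tnfrsf1b minus Tnfrsf1a within each library on the log2 scale (y axis) against time of LPS (x axis, categories not to scale); open points are libraries, 3 per group, and lines join group means. LysM-Cre libraries go from 1.51 to 1.60 at 0 h up to 3.42 to 3.52 at 2 h, and FosKO libraries start higher and end lower, at 3.03 to 3.12.

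The other genes of the pathway were counted in lists, to be read beside the 60.8% of all genes called for LPS at 2 h in LysM-Cre (4248 of 13901 higher and 4200 lower) and the 44.6% called between the genotypes at 2 h (3386 higher and 2816 lower). Of 13 other ligands of the family 8 passed the filter on low values, with Fasl, Cd70, Tnfsf11 and Eda below it and Cd40lg not in the table. At 2 h of LPS in LysM-Cre 6 of the 8 were higher and 1 was lower. Tnfsf15, the ligand of death receptor 3, rose by 4.09, and Tnfsf4, the ligand of OX40, by 3.97. In the libraries labelled FosKO at 2 h 3 were higher and 2 lower, with Tnfsf15 at 2.00 (limma adjusted p 1.66e-08) and Tnfsf14, the ligand Light, at -1.65 (adjusted p 1.75e-11). Their median difference was 0.11, beside 0.14 for the 7 genes. Lta and Ltb, the lymphotoxin genes that flank Tnf on chromosome 17, stayed at or below 2.68 and 3.48 in every library. Lta is among the 6 called higher with LPS, and it passed the filter only through libraries of 1 and 2 h of LPS.

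Of 26 other receptors 16 passed the filter. At 2 h in LysM-Cre 8 were higher and 7 lower, led by Cd40, which receives T cell help (4.13), and the death receptor Fas (2.34). Between the genotypes at 2 h 5 were higher and 3 lower, with Tnfrsf11a, the receptor Rank, at -0.57 and Tnfrsf26 at 0.45. Before LPS both Cd40 (0.87) and Fas (0.60) were higher in FosKO, as was Tnfrsf1b, and after 2 h Cd40 (0.23) and Fas (-0.12) were not called. The response of Fas at 2 h was smaller in FosKO (difference -0.72, called), and that of Cd40 (-0.63) was not called. The difference of 0.23 in Cd40 was called with these groups alone (adjusted p 0.00464). Tnfrsf11a rose by 0.10 at 2 h in LysM-Cre, a call lost without LysM-Cre replicate 3 of that time (0.07) and a sign that reversed under quantile normalisation (-0.16).

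All 27 genes listed for the Tnf receptor signalling complex passed the filter. At 2 h 17 were higher and 4 lower in LysM-Cre, with the deubiquitinating enzyme Tnfaip3 (A20) up by 2.96 and its binding partner Tnip1 up by 2.11. In FosKO at 2 h 10 were higher and 5 lower than in LysM-Cre. Mlkl, the effector of necroptosis, was higher by 0.98 there and by 0.79, 0.90 and 0.78 at 0, 0.5 and 1 h, and the apoptosis initiator Casp8 was higher by 0.49 at 2 h. Casp8 differed by 0.02 between 2 and 0 h in LysM-Cre, which was not called and which reversed under quantile normalisation (-0.14). Tnip1 was higher by 0.35 at 0 h and lower at 2 h (-0.29), and its response to LPS was smaller in FosKO at 1 h (-0.36) and 2 h (-0.64). Tnfaip3 was higher by 0.33 at 2 h (not called under quantile normalisation, 0.06), and its response at 0.5 h was smaller (-0.52, called).

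Tnf is released from the cell by the protease Adam17, whose maturation needs the inactive rhomboid Rhbdf2 and its partner Frmd8, and Furin cleaves many precursors. Of 7 such genes 6 passed the filter, and at 2 h in LysM-Cre 4 were higher and 1 lower, with Rhbdf2 up by 1.48 and Furin by 0.69. The lower gene, Frmd8 (-0.12), missed the threshold without LysM-Cre replicate 1 of 0 h (-0.09) or LysM-Cre replicate 2 of 2 h (-0.11). In FosKO at 2 h 4 were higher than in LysM-Cre and 0 lower, with Frmd8 at 0.38 and Furin at 0.24. All 12 listed regulators of Tnf mRNA passed the filter. The RNase Zc3h12a rose by 2.79 and the decay factor Zfp36l2 fell by 2.61 at 2 h in LysM-Cre, where 7 of the list were higher and 4 lower. Zfp36l1, a decay factor of the same family, fell by 1.25 in LysM-Cre at 2 h while the change of -0.00432 in FosKO was not called (adjusted p 0.965). Between the genotypes at 2 h 5 of the list were higher and 5 lower in FosKO, with Zfp36l1 at 1.02 and Tial1, a translational silencer, at -0.20. For LPS at 2 h in LysM-Cre the fall in Tial1 missed the threshold with these groups alone (-0.08, limma adjusted p 0.0527). That fall also missed it without LysM-Cre replicate 1 or 3 of 0 h, or without LysM-Cre replicate 1 or 2 of 2 h.

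Among the genes beside Tnf, 8 of 10 were in the table and passed the filter, with Mccd1 and Ncr3 not in it. At 2 h in LysM-Cre 4 were higher and 0 lower, the largest by 0.61 (Lta) against 3.33 for Tnf itself. Aif1 and Lst1, myeloid genes of this region, were higher in FosKO by 1.05 and 0.49 at 2 h. The rises of Prrc2a (0.32) and Ddx39b (0.18), and the difference of 0.02 in Prrc2a between the genotypes at 2 h, changed sign under quantile normalisation (-0.02, -0.02 and -0.14). Only the last of these was then called. The median LPS change at 2 h in LysM-Cre was 0.13 for these neighbours, 1.53 for the 7 genes and -0.02 for all genes tested.

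**Figure D4:**
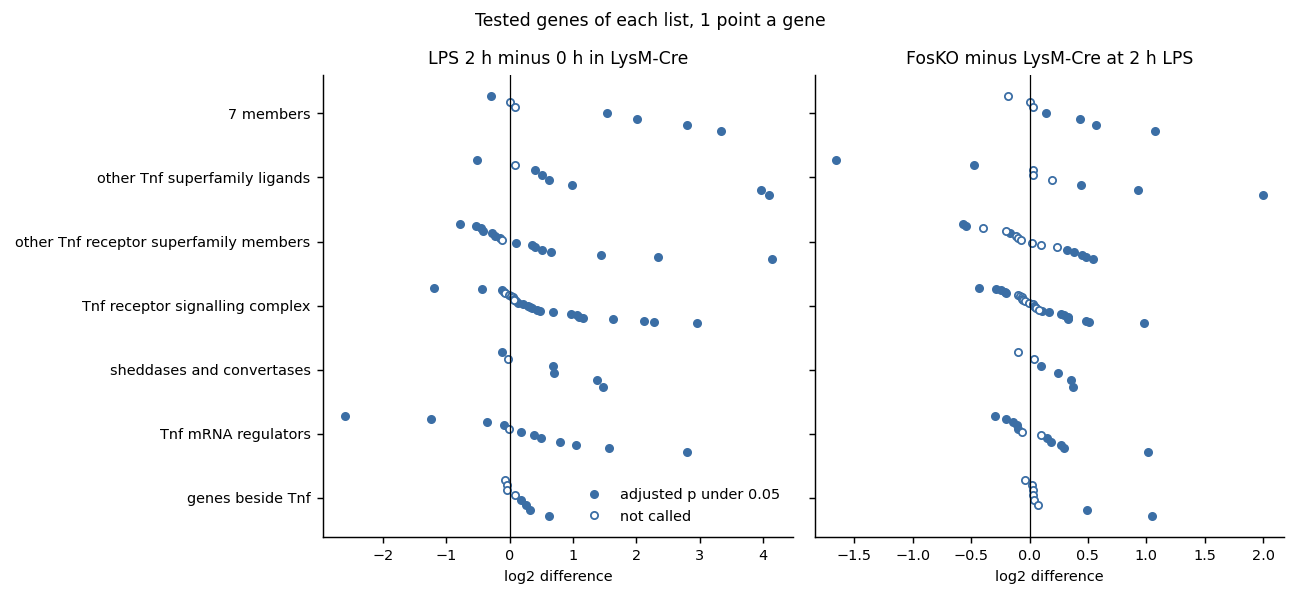
Log2 difference (x axis) of every tested gene in each list (y axis), for LPS at 2 h against 0 h in LysM-Cre (left) and for libraries labelled FosKO against LysM-Cre at 2 h (right); each point is 1 gene and filled points passed an adjusted p of 0.05 over all genes. LPS changes reach 4.13 (Cd40) and -2.61 (Zfp36l2), and genotype differences run from -1.65 (Tnfsf14) to 2.00 (Tnfsf15).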

How the data were processed

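Per the study's methods and the submitters' processing notes, single-end RNA-seq reads were aligned with STAR 2.5.2a and quantified with RSEM 1.2.31 on GRCm38, then normalised with DESeq2 (1.16.1 in the notes). The deposited values are log2 normalised expression, from -2.22 to 19.39. The transform is not stated. It resembles a regularised log, and if it is one, the changes of low genes are understated. The methods give a typical yield of strand-specific reads only, and the depth of each library cannot be read from these values. RefSeq genes are named in the methods, whereas the table has Ensembl identifiers, of which 99.6% matched GENCODE vM21.

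Genes with a linear value of at least 5 in at least 3 libraries were kept. The 24 libraries were fitted with 8 group means in limma 3.58.1 (R 4.3.3, empirical Bayes with a trend, 16 residual degrees of freedom), and p-values were adjusted by Benjamini-Hochberg over 13901 genes, with a call at 0.05. For the 17 comparisons, alternatives were quantile normalisation, TMM factors computed on the linear values, log2 of the linear value plus 1, no filter, a filter at 50, no trend, the compared groups alone, a replicate block, 18S content and each library left out. Lengths and coordinates come from GENCODE, promoters from RefSeq. The 7 genes were all named; from each list the 2 called genes with the largest t for LPS at 2 h in LysM-Cre and for the genotypes at 2 h were named, with the 3 genes most correlated with each member (mean linear value of at least 50) and Lta and Ltb for their place. Members and lists were chosen with earlier results of these data known.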

Additional observations from a re-analysis of the deposited data

Results flagged for a closer look

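The change in response to LPS between 0 and 2 h differed between the genotypes for 3 of the 7 genes, by the interaction term of the limma fit over all genes. For Tnf it was larger in the libraries labelled FosKO by 0.27 (3.60 in FosKO against 3.33 in LysM-Cre, adjusted p 0.0261), a call kept in 17 of 23 alternatives and lost under quantile normalisation (0.03, adjusted p 0.859) and after removal of any of 5 libraries. For Tnfrsf1a it was larger by 0.27 (0.35 against 0.08, adjusted p 0.0051). For Tnfrsf1b the difference was -0.36 (1.66 against 2.01, adjusted p 0.00728), and -0.60 under quantile normalisation. The calls of Tnfrsf1a and Tnfrsf1b were kept in 23 of 23 alternatives. Across all genes 15.0% were called in this comparison.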

How the results depend on the processing

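Of 2121 alternative values for 119 results of the 7 genes, 2054 stayed on their side of the threshold (uncalled values could change sign), 34 became called, 30 lost their call and 3 were called in the opposite direction, all 3 under quantile normalisation: Tnf between genotypes at 0.5 h (-0.19), Tnfrsf1b at 2 h (-0.26) and Tnfrsf1a for LPS at 2 h in LysM-Cre (-0.17). That setting also called in the opposite direction Prrc2a between genotypes at 2 h (-0.14), and Tnfrsf11a (-0.16) and Casp8 (-0.14) for LPS at 2 h in LysM-Cre. For the latter comparison Prrc2a (-0.0176, limma adjusted p 0.773) and Ddx39b (-0.0172, adjusted p 0.708) changed sign and were not called. It moved the number of the 7 genes called to 3 for the genotypes at 0 h and 5 for LPS at 1 h against 0.5 h in LysM-Cre. For the differences in response at 0.5 and 1 h the number became 1 each. The cause was not tested.

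Leaving out 1 library at a time gave 4 to 5 called members for the genotypes at 0, 0.5 and 1 h, 4 at 2 h, and 2 to 3 for the difference in response at 2 h. Over all genes, LPS at 0.5 h in FosKO gave 823 calls, 301 with the groups alone and 542 without FosKO replicate 3 at 0.5 h. In the 19 high 18S libraries, where LysM-Cre at 1 h keeps 1 library that is assumed to vary like the other groups, calls went from 4708 to 2994 (genotypes at 1 h), from 4970 to 3009 (LPS at 1 h, LysM-Cre), from 3725 to 2010 (1 h against 0.5 h, LysM-Cre) and from 169 to 93 (difference in response at 1 h, 112 with the groups alone). The difference in response at 0.5 h ranged from 6 to 25 genes around 16, and 1 h against 0.5 h in FosKO gave 2471 with the groups alone against 3819.

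Libraries share a replicate number only: deviations of same-numbered libraries correlated from -0.53 to 0.31 between genotypes (2 of 12 pairs above 0.1, and 8 of 24 with different numbers) and from -0.25 to 0.71 between times (12 of 36, against 4 of 72 with different numbers). With the number as a limma replicate block, Tnfsf9 was called lower at 0.5 h (-0.16, adjusted p 0.00324) and 1 h (-0.13, adjusted p 0.0187). These 2 calls rest on a pairing of the genotypes that the correlations do not show. Tnfrsf1b was called for LPS at 0.5 h in FosKO (0.20, adjusted p 0.0182). A block by genotype and number, which cannot compare the genotypes, also called it (adjusted p 0.0015). That block called Tnfsf10 for LPS at 1 h in FosKO too (-0.48, adjusted p 0.0254). The depth of each library is not known, so no limit by depth is stated.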
